A study of Mus musculus with 16 samples.

Results

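*Meg3*, *Rian* and *Mirg* are maternally expressed lncRNAs of the imprinted *Dlk1*–*Dio3* region on mouse chromosome 12. Their RNA–DNA pairs were taken as all lines of the significant-interaction tables that carried 1 of these 3 names for the RNA, out of 12080 RNA names, of which 1281 were lncRNAs. They contributed 1556 of 1305107 pairs in Input and 1865 of 1415135 pairs in H3K27me3-RADIP. All of these pairs were *cis* pairs on chromosome 12, and none was a *trans* pair.

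The *Dlk1*–*Dio3* region is read differently on the maternal and paternal chromosomes. The paternal copy expresses the protein-coding genes *Dlk1*, *Rtl1* and *Dio3*, whereas the maternal copy expresses a row of noncoding RNAs that are transcribed in 1 direction, with *Meg3* first, the snoRNA host *Rian* next and the microRNA host *Mirg* last. *Meg3* RNA has been studied as a partner of PRC2, the complex that deposits H3K27me3, a histone mark of silenced genes.

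RADIP ligates RNA to nearby DNA in fixed nuclei by means of a bridge adaptor, after which an antibody selects the RNA–DNA molecules. Both conditions used untreated mESCs of the line PGK12.1, grown with serum and leukemia inhibitory factor and fixed in 1% formaldehyde. H3K27me3-RADIP libraries were made with an anti-H3K27me3 antibody, and Input libraries from the 10% of the material that was kept without antibody selection. The labels list 8 libraries for each condition. Biological replicates numbered 4 per condition, and how they map to the libraries is not given in the sources used here. All were merged before deposit into 1 table per condition, so no replicate error can be given and every comparison below is between 2 merged libraries. Tags were not assigned to a parental chromosome.

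Of 10 mESC marker genes, 5 had significant pairs in Input and 6 in H3K27me3-RADIP. *Esrrb* had 2388 and 2500 pairs, *Tfcp2l1* 441 and 484, *Zfp42* 130 and 98, *Lin28a* 20 and 15 and *Klf4* 13 and 13. *Sox2* had 8 pairs in H3K27me3-RADIP alone, whereas *Pou5f1* and *Nanog* had no listed pair in either table. The 3 mesoderm markers had none, the 4 endoderm markers summed to 38 and 56 pairs, the 3 neural markers to 11 and 33, and the 5 fibroblast markers to 272 and 216, of which *Fn1* gave 272 and 209.

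All 3 genes lie on the plus strand of mm10. *Meg3* (ENSMUSG00000021268.17) spans chr12:109541001-109571726, *Rian* (ENSMUSG00000097451.11 in the tables) chr12:109603940-109661716 and *Mirg* (ENSMUSG00000097391.8) chr12:109729764-109749460. The places on each RNA that were ligated most often are shown as the reference sequence of a single tag window, since these stretches show where on each RNA the pairs came from. Whether the window is the mapped tag or a fixed length around its centre is not given in the sources used here. Each is 25 bases long, written 5′ to 3′ from the GRCm38.p6 (mm10) genome on the plus strand. Capitals mark the 7 bases within which tag centres were counted, and the stretches were chosen by that count.
*Meg3* exon, chr12:109570935-109570959: gagtggaggGCAGGAGggtagcacc
*Meg3* intron, chr12:109554242-109554266: cctttctgtAATCAGAcacagtcct
*Rian* exon, chr12:109635113-109635137: tagagtctgCAACCCTctttcatat
*Rian* intron, chr12:109629304-109629328: catttatctTTTTCAAgggacctcg
*Mirg* intron, chr12:109735462-109735486: acgagtcaaAAATCACcttcctctt

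The *Meg3* exonic window, close to the 3′ end of the gene, held 13 tags in Input and 21 in H3K27me3-RADIP, or 2.54% of all *Meg3* tags. These tags were paired with 19 different DNA bins of 25 kb, so the window was not the product of a single ligated DNA site. The *Rian* exonic window held 11 and 18 tags that were paired with 22 bins, and the *Rian* intronic window 10 and 17 tags with 15 bins. The *Meg3* intronic window held 4 and 9 tags, and the *Mirg* window 5 and 3. Each sequence had 1 exact copy in the genome. Of the tags of the 3 RNAs, between 0% and 1.35% per table had a second exact copy elsewhere.

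No member changed its share of the library by as much as 1.5-fold. *Meg3* had 597 pairs in Input, which were 0.0457% of the library (95% Wilson interval 0.0422 to 0.0496), and 740 in H3K27me3-RADIP, which were 0.0523% (0.0487 to 0.0562). *Rian* had 887 pairs (0.0680%) and 1046 pairs (0.0739%). *Mirg* had far fewer, with 72 pairs (0.00552%) and 79 pairs (0.00558%). The order *Rian*, *Meg3*, *Mirg* was the same in both libraries, and the share intervals of the 3 RNAs did not overlap within either library.

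The share of the library in H3K27me3-RADIP divided by that in Input was 1.14 for *Meg3* (exact 95% interval 1.02 to 1.28), 1.09 for *Rian* (0.994 to 1.19) and 1.01 for *Mirg* (0.726 to 1.41). The interval for *Meg3* therefore left out 1 narrowly, and the other two did not. It included 1 for *Meg3* at a q-value of at most 0.01 (0.991 to 1.25) and over combinations of RNA and bin listed in both libraries (0.929 to 1.18). For *Rian* it lay above 1 under 4 of 8 alternatives, and the ratio ranged from 0.973 over combinations listed in both libraries to 1.38 (1.25 to 1.54) outside the bins of the own gene. For *Mirg* the ratio outside the own bins was 0.415 (0.166 to 0.953), from 20 and 9 pairs, 11 of the former in a bin that was listed in Input alone. None of the 3 passed the rule used for a call, a ratio of at least 1.5-fold in either direction with an interval without 1. By that rule 11.4% of the 8384 RNAs with at least 20 pairs were higher and 17% were lower, and among 467 lncRNAs the shares were 17.1% and 12.8%. The imprinted antisense lncRNAs *Kcnq1ot1* and *Airn*, known for silencing neighbouring genes in *cis*, had ratios of 1.92 (1.86 to 1.98; 5350 and 11139 pairs) and 2.35 (1.76 to 3.15; 68 and 173 pairs). In a bulk library, fewer cells that make an RNA and less RNA per cell cannot be told apart. The intervals cover counting error only, because pairs are PCR products without molecular identifiers. Pairs that repeated both tag positions of another pair made up 7.04% and 10.5% of *Meg3* pairs, 5.64% and 8.32% of *Rian* pairs and 8.33% and 5.06% of *Mirg* pairs.

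The distance between the RNA tag and the DNA tag differed more than the amount. Pairs of *Meg3* over 100 kb numbered 191 of 597 in Input (32.0%, 28.4 to 35.8). In H3K27me3-RADIP they numbered 347 of 740 (46.9%, 43.3 to 50.5), which was 14.9 percentage points more (Newcombe interval 9.65 to 20.0). For *Rian* they numbered 444 of 887 (50.1%, 46.8 to 53.3) and 744 of 1046 (71.1%, 68.3 to 73.8), which was 21.1 points more (16.7 to 25.3). *Mirg* had no listed pair over 100 kb in either library. Among the listed pairs, *Rian* thus had the larger long-range share in both libraries and *Meg3* the smaller. *Mirg* cannot be ranked with them, since a distant bin needed about 8 pairs to be listed and *Mirg* had 72 and 79 pairs in all.

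A higher share over 100 kb was common among RNAs in H3K27me3-RADIP. Of 3312 RNAs with at least 50 *cis* pairs in each library, 44.7% had a higher share by an interval without 0 and 5.95% a lower one, and among 69 lncRNAs these figures were 34.8% and 5.8%. With 2 of 3 members higher, the direction was therefore that of many RNAs. The median difference was 5.15 points over all these RNAs and 4.63 points over the lncRNAs. A difference as large as that of *Rian* was found for 5.98% of all RNAs, and one as large as that of *Meg3* for 15.5%. Restricted to combinations of RNA and bin that were listed in both libraries, the difference was 6.06 points for *Meg3* (0.751 to 11.3) and 15.2 points for *Rian* (10.6 to 19.7). Restricted to pairs outside the bins of the own gene, it was 12.9 points for *Meg3* (6.66 to 19.0) and 8.75 points for *Rian* (4.56 to 13.0). The order of the 2 RNAs thus depended on the own bins, with overlapping intervals.

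**Figure D1:**
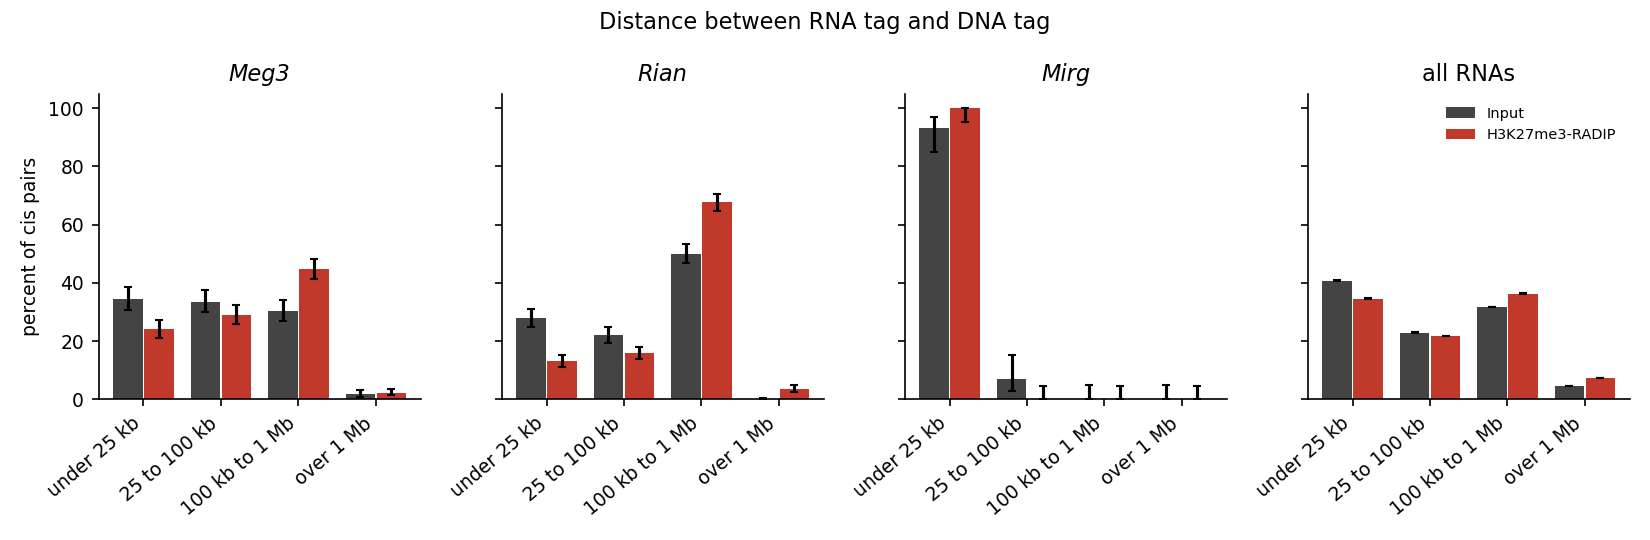
Percent of *cis* pairs (y axis) in 4 classes of distance between RNA tag and DNA tag (x axis) for *Meg3*, *Rian*, *Mirg* and all RNAs, in Input (grey) and H3K27me3-RADIP (red), with 95% Wilson intervals. *Rian* moved from 27.8% to 13.1% under 25 kb and from 50.1% to 67.6% between 100 kb and 1 Mb, and all *Mirg* pairs of H3K27me3-RADIP lay under 25 kb.

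By class, *Meg3* pairs under 25 kb numbered 206 in Input and 178 in H3K27me3-RADIP, which was 34.5% and 24.1%. Those from 100 kb to 1 Mb numbered 181 and 331, or 30.3% and 44.7%. Over 1 Mb there were 10 and 16 *Meg3* pairs, 0.487 points apart with an interval that included 0 (−1.12 to 2.01). The gain of *Meg3* thus lay between 100 kb and 1 Mb. *Rian* pairs under 25 kb numbered 247 and 137, and those from 100 kb to 1 Mb numbered 444 and 707. *Rian* had no listed pair over 1 Mb in Input and 37 in H3K27me3-RADIP, or 3.54% of its pairs, in bins of 8 to 11 pairs just over the listing limit. *Mirg* had 67 and 79 pairs under 25 kb and 5 and 0 pairs from 25 to 100 kb.

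In Input *Meg3* pairs had a median distance of 46.3 kb, with quartiles of 15.3 and 135 kb. The H3K27me3-RADIP median was 86.6 kb, with quartiles of 27.1 and 277 kb. The *Rian* medians were 101 kb (20.7 to 277 kb) before and 210 kb (81.9 to 556 kb) after selection. The medians were thus 1.87 and 2.09 times as long in H3K27me3-RADIP, or 1.25 and 1.77 times over combinations listed in both libraries. Over all listed pairs, the median of such ratios was 1.42 over the 3312 RNAs and 1.41 over the 69 lncRNAs. The *Mirg* medians were 6.11 and 2.84 kb, a ratio of 0.464. The longest *Rian* pair spanned 823 kb without antibody and 3084 kb with it, and the longest *Meg3* pair 1117 and 1148 kb.

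**Figure D2:**
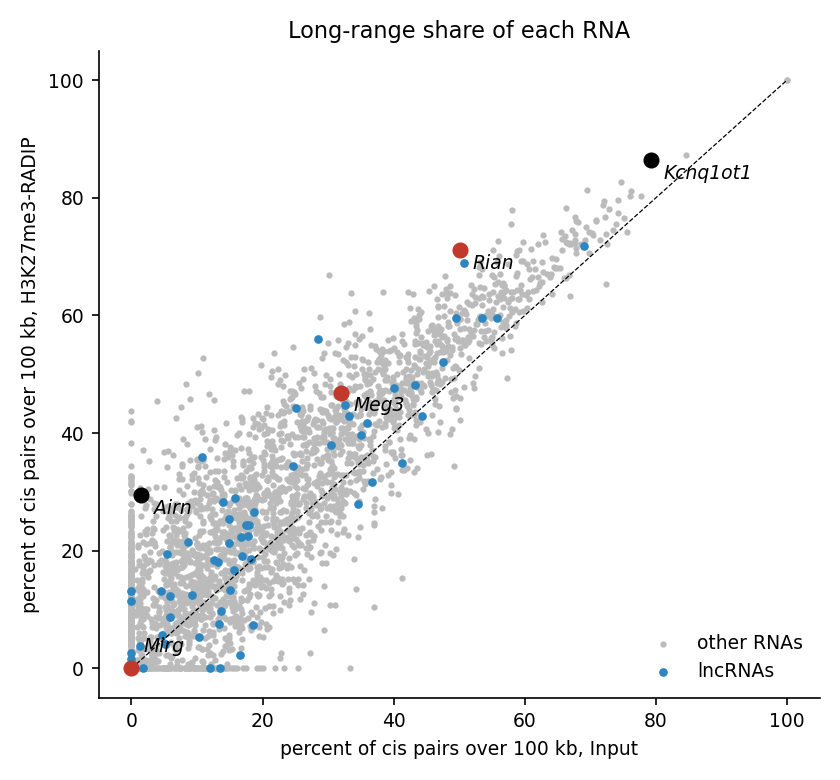
Percent of *cis* pairs over 100 kb in H3K27me3-RADIP (y axis) against Input (x axis), 1 point for each of 3312 RNAs with at least 50 *cis* pairs in each library, with lncRNAs in blue, the 3 members in red and *Kcnq1ot1* and *Airn* in black. On the dashed line both shares are equal, and *Rian* (50.1% and 71.1%) and *Meg3* (32.0% and 46.9%) lie above it while *Mirg* lies at 0.

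Of the comparison RNAs, *Kcnq1ot1* had 79.3% of its pairs over 100 kb in Input and 86.4% in H3K27me3-RADIP, a smaller difference from a higher start. *Airn* had 1 of 68 and 51 of 173 pairs over 100 kb. Over 1 Mb, *Kcnq1ot1* had 28.5% and 40.5% of its pairs, against 1.68% and 2.16% for *Meg3*. *Kcnq1ot1* had 5350 and 11139 pairs in all, *Meg3* had 597 and 740, and a distant bin needed about 8 pairs to be listed. These shares therefore cannot be read as a difference in reach.

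In the bins that overlap the own gene, *Meg3* and *Rian* had a lower share of their pairs in H3K27me3-RADIP. *Meg3* had 180 pairs in its own bins in Input (30.2%). It had 149 there in H3K27me3-RADIP (20.1%), a change of −10.0 points (−14.7 to −5.35). *Rian* had 296 (33.4%) and 159 (15.2%), a change of −18.2 points (−21.9 to −14.4). *Mirg* had 52 of 72 (72.2%) and 70 of 79 (88.6%), a change of 16.4 points (3.74 to 28.8) that rested on 1 bin of 11 pairs listed in Input alone. Over bins listed in both libraries it had 52 of 61 (85.2%) and 70 of 79 (88.6%), a change of 3.36 points (−7.80 to 15.5). The corresponding changes were −7.04 points (−12.3 to −1.74) for *Meg3* and −15.1 points (−19.1 to −11.04) for *Rian*. A lower share in own bins was found by an interval without 0 for 53.2% of the 3312 RNAs and 43.5% of the lncRNAs, and a higher share for 5.68% and 8.7%.

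The bins on chromosome 12 in which each RNA was listed formed a domain around the 3 genes with separate groups of bins farther out. *Meg3* was listed in 24 bins in Input and 34 in H3K27me3-RADIP. Both tables listed 19 of these, or 79.2% of the Input bins and 55.9% of the H3K27me3-RADIP bins. *Rian* was listed in 42 and 57 bins, and all 42 Input bins were listed again in H3K27me3-RADIP, of which they were 73.7%. *Mirg* was listed in 3 and 2 bins, 2 of them in both. Over all RNAs, 75.8% of the combinations of RNA and bin in Input were listed again in H3K27me3-RADIP, and 66.1% of those in H3K27me3-RADIP were listed in Input. The fewest pairs in a listed bin were 8 for *Meg3* and *Rian* and 9 for *Mirg*, so a bin that was not listed can still have held fewer pairs.

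**Figure D3:**
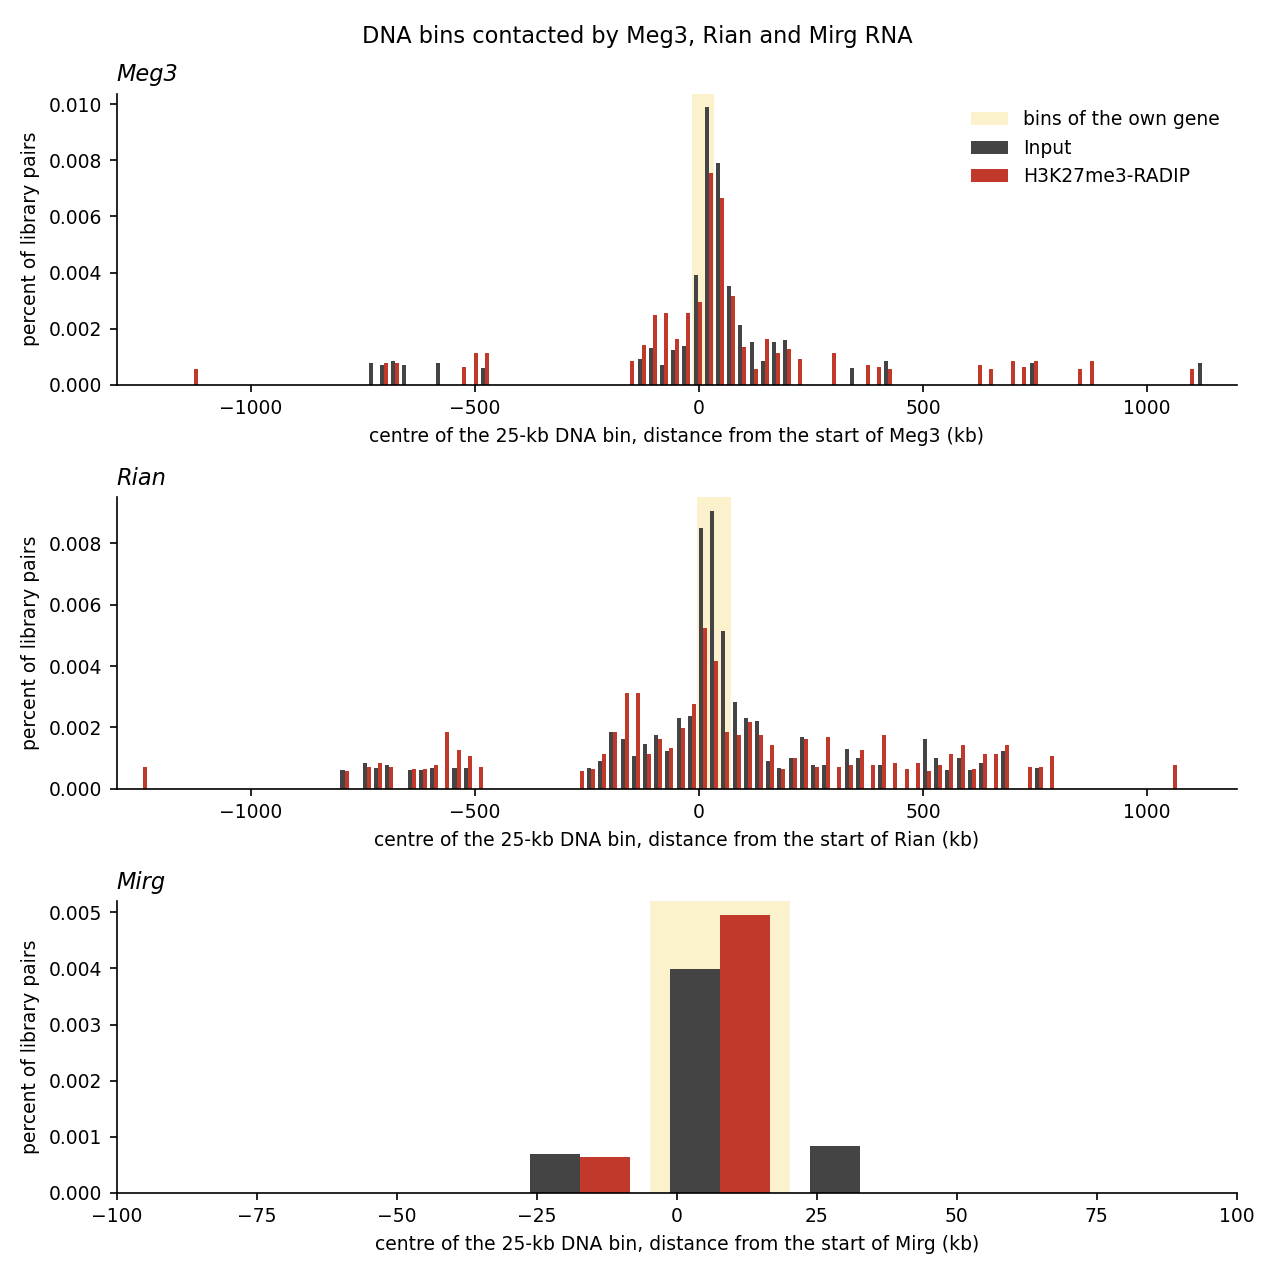
Percent of the pairs of the library (y axis) in each listed 25-kb DNA bin, by distance of the bin centre from the start of the gene (x axis), in Input (grey) and H3K27me3-RADIP (red), with the bins of the own gene shaded. *Meg3* and *Rian* peak in or next to their own bins in both libraries, *Mirg* is listed in at most 3 bins (shown on a narrower axis), and 2 *Rian* bins that were listed with 8 pairs each in H3K27me3-RADIP, 1859 and 3084 kb from its start, lie beyond the axis.

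*Meg3* reached its highest counts in the bin at chr12:109550001-109575000, which holds the 3′ part of its gene, with 129 pairs in Input (q = 3.68e-94) and 107 in H3K27me3-RADIP (q = 3.25e-84). The next bin downstream, which overlaps *Rtl1*, a paternally expressed gene needed in the placenta, had 103 and 94 *Meg3* pairs. The bin with the start of *Meg3* had 51 and 42. Farther downstream the following 5 bins had 46, 28, 20, 11 and 20 *Meg3* pairs in Input and 45, 19, 8, 23 and 16 in H3K27me3-RADIP. The bin that holds *Mirg* came next, with 21 and 18 *Meg3* pairs.

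*Rian* had 111 and 74 pairs in the first bin of its gene, 118 and 59 in the second and 67 and 26 in the third. The ratios of library shares were 0.615 (0.452 to 0.833), 0.461 (0.331 to 0.636) and 0.358 (0.218 to 0.571), so all 3 own bins were lower by the call rule. Upstream, over the bins of *Meg3*, *Rian* had 16 and 30 pairs in Input and 19 and 28 in H3K27me3-RADIP. The bin of *Mirg* had 29 and 25 *Rian* pairs. Of the 42 bins listed in both tables, 4 were higher and 4 lower by the call rule, and of the 19 of *Meg3*, 3 were higher and 1 lower. Over all 48606 combinations of RNA and bin listed in both tables, 3.44% were higher and 7.19% lower. The median ratio in the shared bins outside the own gene was 1.04 for *Rian* and 1.11 for *Meg3*. Higher *Rian* bins downstream of its gene were chr12:109875001-109900000, with 10 and 24 pairs (2.21, 1.02 to 5.19), and chr12:110000001-110025000, with 10 and 25 (2.31, 1.07 to 5.38).

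Bins that were listed in H3K27me3-RADIP alone numbered 15 for *Meg3*, with 160 pairs, and 15 for *Rian*, with 176 pairs, while 33.9% of all combinations in H3K27me3-RADIP were listed there alone. Of these, 4 lay upstream and 11 downstream of the gene for each RNA. The counts in them were low, between 8 and 16 pairs for *Meg3* and between 8 and 26 for *Rian*. Bins listed in Input alone numbered 5 for *Meg3*, with 8 to 10 pairs in each, and none for *Rian*, against 24.2% of all combinations in Input.

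*Meg3* and *Rian* were listed in many of the same bins. In Input 22 bins carried both RNAs, which were 91.7% of the *Meg3* bins and 52.4% of the *Rian* bins. In H3K27me3-RADIP 30 bins did, or 88.2% and 52.6%. The *Mirg* bins were its own gene bin, the bin before it with 9 pairs in each library, and the bin after it with 11 pairs in Input alone.

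*Meg3* and *Rian* both had more pairs in H3K27me3-RADIP at *Dlk1*, the paternally expressed gene at the upstream side of the region, which encodes a transmembrane protein related to Notch ligands. In the *Dlk1* bin, chr12:109450001-109475000, *Meg3* had 9 pairs in Input (q = 0.0271) and 36 in H3K27me3-RADIP (q = 1.94e-22), and *Rian* 14 and 44. The ratios were 3.69 for *Meg3* (1.74 to 8.71) and 2.90 for *Rian* (1.56 to 5.73). The bin before it, chr12:109425001-109450000, had 17 and 35 *Meg3* pairs, a ratio of 1.90 (1.04 to 3.61), and 21 and 44 *Rian* pairs, a ratio of 1.93 (1.12 to 3.42). The bin after it, chr12:109475001-109500000, had 16 and 23 *Meg3* pairs, a ratio of 1.33 (0.671 to 2.68), and 19 and 16 *Rian* pairs, a ratio of 0.777 (0.374 to 1.59), both with intervals that included 1. In the next bin, chr12:109500001-109525000, *Meg3* was higher again, with 18 and 36 pairs (1.84, 1.02 to 3.45). *Rian* had 23 and 23 pairs there (0.922, 0.494 to 1.72). Other RNAs had no listed pair in the *Dlk1* bin or the bin before it in Input and 91 in H3K27me3-RADIP. Each RNA had between 8 and 12 of these in a bin. Since combinations under about 7 pairs are not listed, most of such a count could be missing from the Input table, and no ratio is given. In the *Dlk1* bin these came from *Evl* with 12 pairs, *Dlk1* itself and *Ppp2r5c* with 11 each, *Ccdc85c* with 10, *Wdr25* with 9 and *Gm34081* with 8, the last named after its values had been seen.

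*Begain*, which encodes a protein of postsynaptic densities, lies farther upstream. Over both *Begain* bins, chr12:109025001-109075000, *Meg3* had 8 and 32 pairs, and *Rian* 9 and 44 pairs. No ratio is given for the sum, because the first of these bins was not listed in Input for either RNA. In H3K27me3-RADIP it had 16 *Meg3* and 26 *Rian* pairs. In the second bin, listed in both tables, *Meg3* had 8 and 16 pairs, a ratio of 1.84 (0.745 to 4.98), and *Rian* 9 and 18, a ratio of 1.84 (0.787 to 4.66), both with intervals that included 1. Other RNAs had 78 and 213 listed pairs over both bins. At the other end of the region, the bin of *Dio3*, the enzyme that inactivates thyroid hormone, and its antisense partner *Dio3os* had 10 and 12 *Meg3* pairs and 16 and 20 *Rian* pairs. The ratios there were 1.11 (0.438 to 2.86) and 1.15 (0.568 to 2.38), with intervals that included 1. In the *Rtl1* bins *Meg3* had 149 and 139 pairs and *Rian* 142 and 113, the latter with a ratio of 0.734 (0.568 to 0.946). One of these bins is also the first bin of *Rian* itself, with 111 and 74 pairs, and the other had 31 and 39 *Rian* pairs, a ratio of 1.16 (0.705 to 1.92).

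The part of the counts of other RNAs at *Dlk1* and *Begain* in the values of *Meg3* and *Rian* was not tested.

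Around the 3 lncRNAs, 21 genes of the region and its flanks were examined for their own RNA. Of these, 14 had pairs in both libraries, 3 (*Hhipl1*, *Degs2* and *Dlk1*) in H3K27me3-RADIP alone, and 4 (*Slc25a29*, *Rtl1*, *Dio3* and *Dio3os*) in neither. Thus of the paternally expressed coding genes, only *Dlk1* was listed, with 11 pairs. By the call rule 4 of the 14 were higher in H3K27me3-RADIP and none was lower, against 11.4% and 17% of all RNAs, and their median ratio was 1.22. Those 4 were *Begain* with 21 and 54 pairs (ratio 2.37, 1.41 to 4.13), *Ccdc85c* with 252 and 479 (1.75), *Eml1* with 65 and 116 (1.65) and *Wdr25* with 406 and 685 (1.56). The flanking gene *Yy1*, for a zinc-finger transcription factor, had 289 and 407 pairs (1.30, 1.11 to 1.52), and *Ppp2r5c*, a phosphatase subunit on the other flank, 1010 and 1240 (1.13, 1.04 to 1.23). *Meg3* pairs fell in bins of 10 of the 21 genes in Input and 10 in H3K27me3-RADIP, and *Rian* pairs in bins of 8 and 11.

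Exonic and intronic tags were both frequent on these RNAs, and the balance did not differ between libraries beyond counting error. Exonic tags were 329 of 597 for *Meg3* in Input (55.1%, 51.1 to 59.1). Those in H3K27me3-RADIP were 398 of 740 (53.8%, 50.2 to 57.3), a change of −1.33 points (−6.67 to 4.04). For *Rian* they were 393 (44.3%) and 473 (45.2%), a change of 0.913 points (−3.53 to 5.35), and for *Mirg* 25 (34.7%) and 23 (29.1%), a change of −5.61 points (−20.1 to 9.09). All other lncRNAs together had 27.5% and 35.8% exonic tags, and 15.4% and 17.0% without *Kcnq1ot1*, whose tags were all exonic.

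Set against the length of exon and intron, the tags on *Meg3* were somewhat denser in introns, by densities given without intervals. In GENCODE M21 its exons cover 58.9% of the gene in 8 blocks. *Meg3* had 18.2 exonic tags per kb of exon and 21.2 intronic tags per kb of intron in Input, and 22.0 and 27.1 in H3K27me3-RADIP. *Mirg*, whose exons cover 37.0% of its gene, had 3.43 and 3.79 tags per kb in Input and 3.15 and 4.51 in H3K27me3-RADIP. Intronic tags were thus at least as dense as exonic ones on both genes in both libraries. No such density is given for *Rian*, because only 233 of its 393 exonic tags in Input and 249 of 473 in H3K27me3-RADIP lay in exons of the M21 release, and the authors used a later one.

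**Figure D4:**
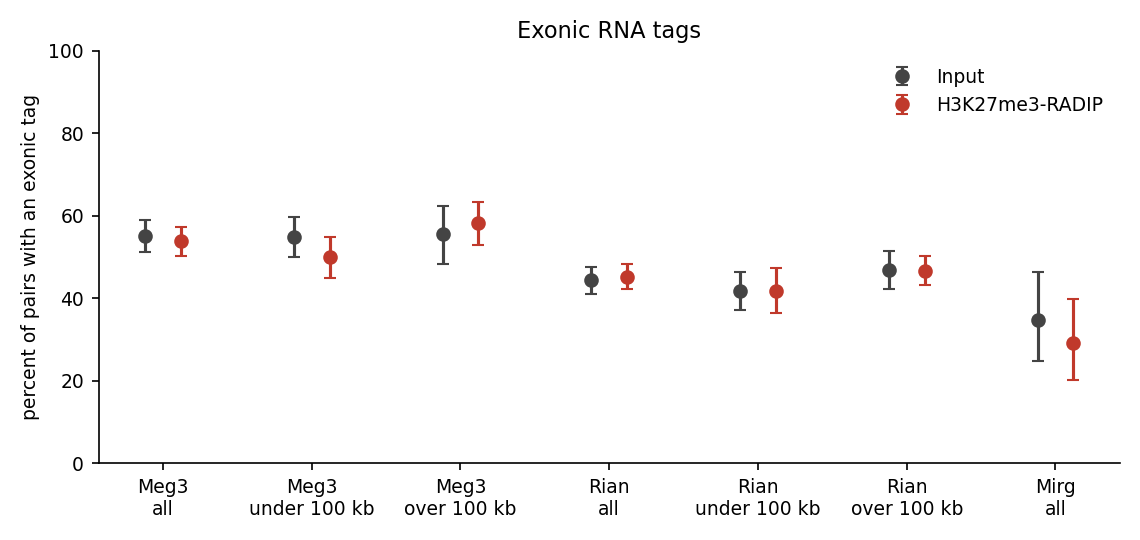
Percent of pairs with an exonic RNA tag (y axis) for all pairs of each RNA and, for *Meg3* and *Rian*, for pairs under and over 100 kb (x axis), in Input (grey) and H3K27me3-RADIP (red), with 95% Wilson intervals. The intervals of both libraries overlap in every pair of points, with *Meg3* highest and *Mirg* lowest over all pairs.

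The exonic share was also compared between long-range and short-range pairs of the same RNA. *Meg3* in H3K27me3-RADIP had 202 exonic tags among 347 pairs over 100 kb (58.2%) and 196 among 393 pairs under 100 kb (49.9%), a difference of 8.34 points (1.14 to 15.4). In Input the difference was 0.571 points (−7.97 to 8.99). For *Rian* it was 5.09 points in Input (−1.45 to 11.6) and 4.92 points in H3K27me3-RADIP (−1.74 to 11.4). The interval thus left out 0 in 1 of 4 comparisons.

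Along the genes, tags were spread over the whole of each RNA. In 4 equal parts of the gene from 5′ to 3′, *Meg3* had 75, 194, 177 and 151 tags in Input and 119, 228, 234 and 159 in H3K27me3-RADIP, so its first part had the fewest in both. *Rian* had 327, 213, 241 and 106 tags in Input and 385, 272, 288 and 101 in H3K27me3-RADIP, falling off towards the 3′ end. *Mirg* had between 16 and 23 tags per part in Input and between 17 and 22 in H3K27me3-RADIP. The share of tags in the 3′ part, past the middle of the gene, was 54.9% and 53.1% for *Meg3*, 39.1% and 37.2% for *Rian*, and 54.2% and 49.4% for *Mirg*.

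**Figure D5:**
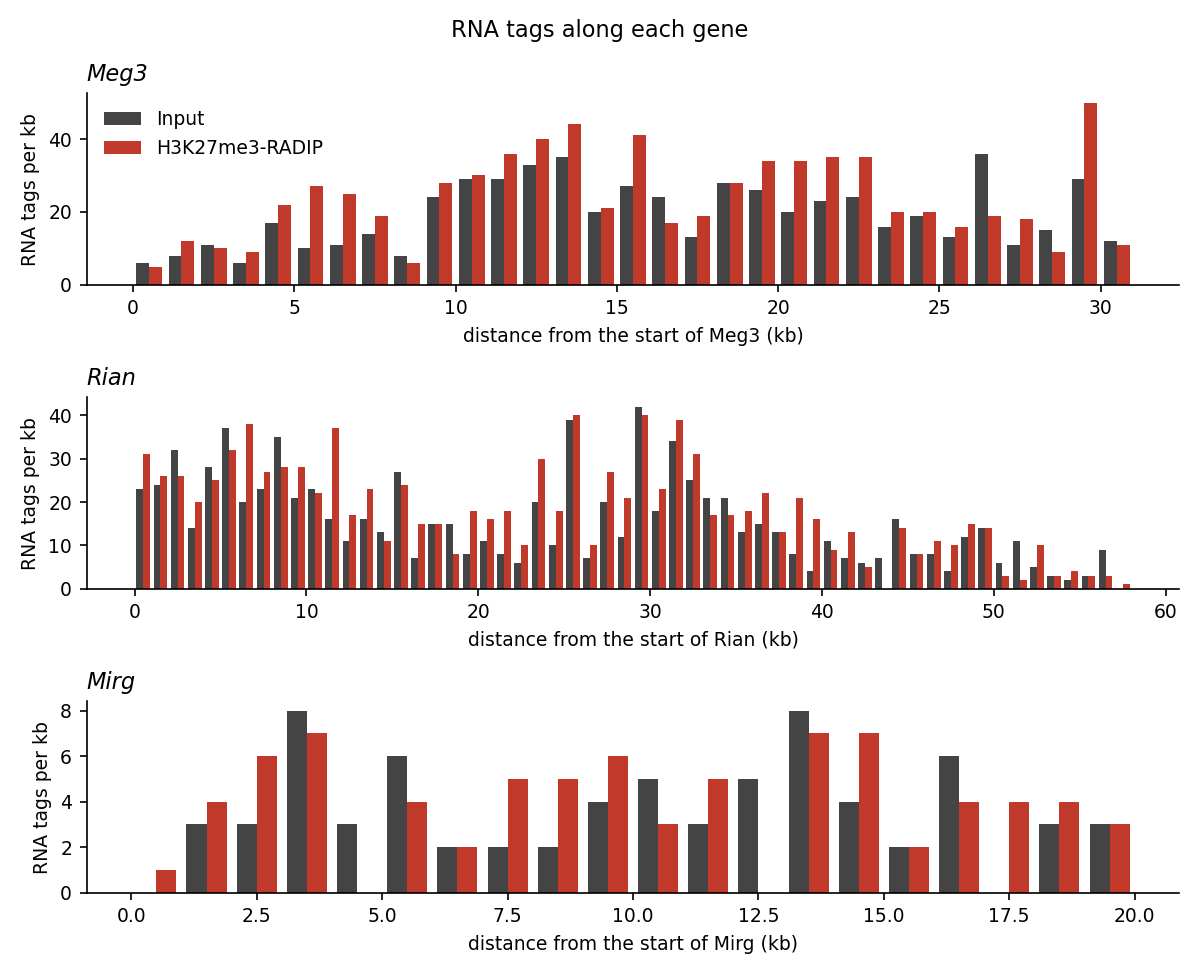
RNA tags per kb (y axis) along *Meg3*, *Rian* and *Mirg* by distance from the start of each gene in kb (x axis), in Input (grey) and H3K27me3-RADIP (red), in steps of 1 kb with a shorter last step. Tags cover nearly all steps in both libraries, the *Meg3* step with the exonic window shown above is its highest in H3K27me3-RADIP, and *Rian* declines towards its 3′ end.

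By distance profile, the RNAs most like each member were all protein-coding. Few of the RNAs with many pairs were lncRNAs, namely 69 of the 3312 with at least 50 *cis* pairs in each library. Likeness was the summed absolute difference of the percentages of pairs in 5 classes (the 4 of distance and *trans*) over both libraries, among 5438 RNAs. For *Meg3* the nearest were *Diaph1* (10.3 points apart), *Fbxw8* (10.6) and *Papola* (11.1). For *Rian* they were *Peak1* (16.2), *Uvrag* (17.7) and *Tnrc6c* (17.9), with 55.8%, 48.6% and 47.8% of pairs over 100 kb in Input and 69.0%, 65.1% and 66.6% in H3K27me3-RADIP. For *Mirg* they were *Pank4*, *Uap1l1* and *Trp53*, none of which had a listed pair over 100 kb. Likeness was computed from these same distance classes, so the closeness of the shares over 100 kb follows from the choice.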

How the data were processed

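The deposited tables hold 1 line per RNA–DNA pair. Per the paper, the authors mapped tags to mm10, annotated RNA tags by strand with GENCODE M25, assigned DNA tags to 25-kb bins and merged the libraries of a condition. The submitters' processing notes name BWA 0.7.15-r1140, STAR 2.5.0a and CASAVA 1.8.2. The authors then computed p-values and q-values for each combination of RNA and bin with a modified CHiCANE model and kept q-values up to 0.1, so weaker combinations are missing from both libraries. Every q-value was below 0.1, and each combination had 1 q-value. The p-values, 1 column per table and 2 in all, were not used here.

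Lines were counted here by RNA name. Depth was 1305107 pairs in Input and 1415135 in H3K27me3-RADIP. Distances ran between tag centres. Shares have 95% Wilson intervals, differences Newcombe intervals and ratios exact conditional intervals. All cover counting error only, and no test between conditions was possible with 1 merged table each. Calls needed 1.5-fold and 20 pairs over both libraries. Gene positions came from GENCODE M21 and sequences from the RefSeq copy of GRCm38.p6. Named genes were the members, 21 genes of the region, *Kcnq1ot1*, *Airn*, the 3 RNAs nearest to each member in distance profile, genes in the 5 bins with the most pairs outside each member's gene, and 25 cell type markers. Genes named beyond these were chosen after their values were seen. Members, lists and rules were chosen with earlier results of these data known.

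The ratio and interval steps were tested on simulated data. Alternatives covered the q-value limit, repeated tags, library totals, gene identifiers, combinations listed in both tables, own-gene bins and call limits. Python 3.11.15, numpy 2.4.6, pandas 2.3.3, scipy 1.17.1 and matplotlib 3.10.9 were used.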

Additional observations from a re-analysis of the deposited data

How the results depend on the processing

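Of 83 values under alternative settings, 70 stayed within the interval of the main value or, for medians and counts, which have no interval, within 1.5 times of it, and 13 did not. Not all were separate checks. Ratios by gene identifier equalled the main ones, and the *Mirg* difference over 100 kb was 0 throughout. Bin counts were the same at a q-value of at most 0.01 and at 10 or more pairs. With pairs outside the own gene bins, the share ratio was 1.31 for *Meg3*, 1.38 for *Rian* and 0.415 for *Mirg* (0.166 to 0.953), the last on the other side of 1 from its main value of 1.01. With combinations listed in both libraries, it was 0.973 for *Rian* (0.885 to 1.07), also on the other side of 1 from its main value of 1.09, and the difference in the share over 100 kb was 6.06 points for *Meg3* and 15.2 for *Rian*. With pairs outside the own gene bins, an alternative chosen after seeing the data, that difference was 8.75 points for *Rian*. The change in own-bin share of *Mirg* over combinations listed in both libraries, likewise chosen after seeing the data, was 3.36 points. Over all alternatives the difference over 100 kb ranged from 6.06 to 16.0 points for *Meg3* and from 8.75 to 24.8 for *Rian*, with intervals above 0 throughout. *Mirg* kept 1 bin in H3K27me3-RADIP at a q-value of at most 0.01 and 1 bin at 10 or more pairs. The number of RNAs called higher, 955, became 608 at 2-fold and 581 at 50 or more pairs, and the number called lower, 1424, became 850 at 2-fold. The median distance of *Mirg* from the gene body had no ratio, because the median was 0. No paired analysis was possible because the authors merged the libraries, and for the same reason no library could be left out. The pair counts limit *Mirg* most, with 72 and 79 pairs. Bins under about 8 pairs are missing from the tables, so a gain in listed bins and a gain in pairs cannot be fully separated.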

Other observations

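Other noncoding or unclassified transcripts of the same stretch, chosen after their values were seen, gave 1 ratio with an interval above 1 and none with an interval below it. By the stricter call rule, 17.1% of 467 lncRNAs were higher and 12.8% lower, so such a ratio was not unusual. *B830012L14Rik*, between *Rian* and *Mirg*, had 210 pairs without antibody and 193 with it, a ratio of 0.848 (0.693 to 1.04). *Gm37899*, whose bins include the last bin of *Rian*, had 52 and 39 pairs (0.692, 0.445 to 1.07). *Gm34081*, on the opposite strand between *Dlk1* and *Meg3*, had 23 and 52 pairs (2.09, 1.25 to 3.57). *Gm34719* had 15 and 8 pairs and *Gm40576* 8 and 10.

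*Meg3*, *Rian* and *Mirg* host small RNAs. The annotation places 2 microRNAs inside *Meg3*, 4 microRNAs and 13 snoRNAs inside *Rian* and 14 microRNAs inside *Mirg*. No listed tag of any RNA was centred inside these small RNAs in either library. They cover 5.45% of the length of *Mirg*. Per the paper, RNA tags were assigned unambiguously to annotated genes. How tags over a host gene and a small RNA inside it were handled is not given in the sources used here. The part of this step in the lack of tags was not tested.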
